A study of Mus musculus with 2 samples.

Results

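RNA levels of 53 genes of the endoplasmic reticulum (ER) secretory machinery and its stress response were described in CH12.LX, a B-cell lymphoma line of the mouse. The genes were chosen by symbol from a list of chaperones, folding enzymes, degradation factors, translocation and glycosylation subunits and stress sensors, and every symbol matched a gene of the deposited tables, 53 of 43346. The series holds 2 libraries of this line, numbered by the labels as biological replicates 1 and 2 from separate biosamples, and they form 1 group. CH12.LX is an established, immortalized line. Its strain is given as B10.H-2aH-4bp/Wts and its sex as female, with age, stage and health state unknown, and it serves as the mouse analog of the human line GM12878. No treatment or other cell type is named, so levels could be compared between genes and between replicates only. RNA above 200 nt was kept, with ERCC RNAs spiked in. The labels call the assay total RNA sequencing while their description says polyA+, and the sources used here do not decide between them.

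The libraries held 24469094 and 23586580 expected counts. Levels are given in TPM, a relative abundance per transcript length, as mean ± SD (n = 2). All 8 B-cell markers checked were at 1 TPM or more in both libraries, from Pax5 at 8.43 ± 0.933 TPM to Cd74 at 2359 ± 165 TPM. Of 8 plasma-cell markers 7 passed, and levels ran from Tnfrsf17 at 0.285 ± 0.0495 TPM to Mzb1 at 1325 ± 163 TPM. Jchain was at 975 ± 49.3 TPM, Irf4 at 101.86 ± 11.78 TPM and Xbp1 at 100.29 ± 3.14 TPM. Prdm1, at 3.51 ± 0.156 TPM, and Sdc1, at 2.135 ± 0.163 TPM, were the lowest of those that passed. Markers of T, myeloid, erythroid, stromal and epithelial cells passed for 2 of 19 genes, the hemoglobin genes Hbb-bt and Hba-a1, and their summed level was 11.5 and 10.7 TPM. Cd3e, Thy1, Cd14 and S100a8 were at 0 counts in both libraries. In bulk RNA, fewer cells of a type and less RNA per cell cannot be told apart.

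Proteins bound for the cell surface or for secretion enter the ER while they are made, guided by the signal recognition particle to the Sec61 channel. There the signal peptide is cut off, sugar chains are attached, chaperones and disulfide isomerases fold the chain, and misfolded chains are sent back to the cytosol for destruction. When unfolded protein accumulates, the sensors IRE1, ATF6 and PERK start the unfolded protein response, which raises many of these genes and is also used by B cells on their way to antibody secretion.

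All 53 genes were at 1 TPM or more in both libraries, against 25.4% of all annotated genes and 45.9% of protein-coding genes. Members and lists were chosen with earlier results of these data known, so contrasts of their levels with other genes are description only. The median was 118 TPM, and 31 of 53 reached 100 TPM in both libraries, a level that 5.88% of protein-coding genes and 12.8% of the protein-coding genes past 1 TPM reached. Of the members, 35 stood above 90% of protein-coding genes. Levels ran from Hspa5 at 953 ± 74.8 TPM to Ern1 at 2.315 ± 0.00707 TPM. In the order of the 53 levels, the ranges of the 2 libraries overlapped for 28 of 52 neighbouring pairs and did not overlap for 24. The lowest expected count of any member in any library was 118, and the deposited SD of the count, the uncertainty left by shared reads, was 0 for 48 members and at most 18.6 counts, for Sec61g, in the other 5.

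**Figure D1:**
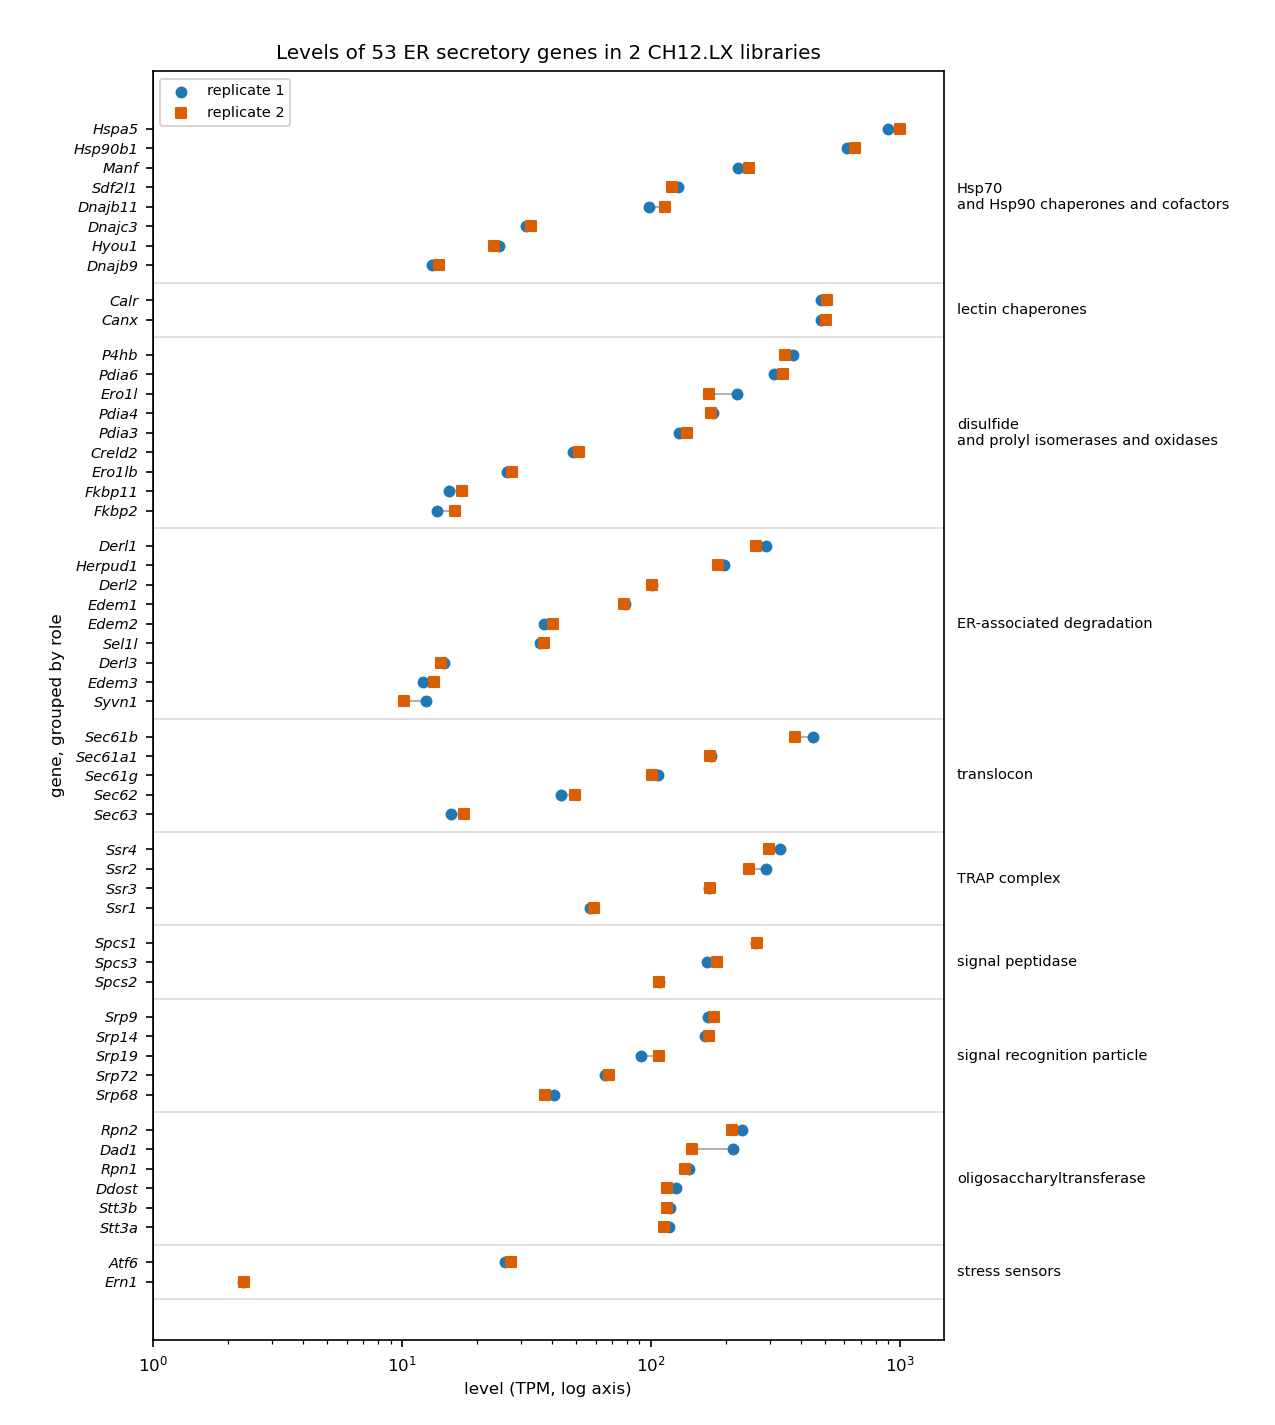
Level of each of the 53 genes in TPM (log axis) in replicate 1 (circles) and replicate 2 (squares), grouped by role and ordered by mean level. Replicates lie close together for most genes, Dad1 and Ero1l are the widest apart among the abundant genes, and Hspa5 leads while Ern1 is lowest.

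A short promoter element, the ER stress response element (ERSE), is known to be bound by NF-Y at its CCAAT end and by ATF6 at its CCACG end, and it is shown because it marked the 4 most abundant members. The search used CCAAT and CCACG with 9 free bases between them (ERSE), ATTGG and CCACG with 1 free base between them (ERSE-II) and TGACG joined directly to TGG (UPRE), on both strands, from 250 bases before to 50 bases after the start site, in RefSeq promoters of build GRCm38.p6. A window was found for 44 members. None was found for Hyou1, Manf, Derl1, Sec61a1, Ssr2, Spcs3, Srp19, Srp68 and Atf6. An exact ERSE occurred in 10 of 44 members (22.7%), against 0.137% of 27025 genes with a window, or 37 genes. This element is known from the same ER stress response that the members were listed for, so the contrast is not an independent test. The elements follow in the direction of the motif, 5′ to 3′ with 5 flanking bases, and capitals mark the letters that the motif fixes.
Hspa5: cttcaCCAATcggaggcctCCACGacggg
Hsp90b1, nearer element: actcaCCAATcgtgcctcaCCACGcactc
Hsp90b1, farther element: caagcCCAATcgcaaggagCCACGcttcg
Calr: atgggCCAATgagggtcgaCCACGcgttg
Canx: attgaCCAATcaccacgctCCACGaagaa
Pdia6: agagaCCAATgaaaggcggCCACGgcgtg
Creld2: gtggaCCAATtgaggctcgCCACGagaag
Dnajc3: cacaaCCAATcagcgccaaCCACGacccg
Ero1lb: ggcggCCAATgaggcgggaCCACGaggcc
Derl3: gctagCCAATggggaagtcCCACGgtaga
Syvn1: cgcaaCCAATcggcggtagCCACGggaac

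The 11 exact elements lay between 26 and 212 bases upstream of the RefSeq start, 6 on the strand of the gene and 5 on the opposite strand. Without their flanks they stand at chr2:34772025-34772043 (Hspa5), chr10:86705533-86705551 and chr10:86705638-86705656 (Hsp90b1), chr8:84847075-84847093 (Calr), chr11:50325800-50325818 (Canx) and chr12:17266491-17266509 (Pdia6). Those of the less abundant genes stand at chr15:88819520-88819538 (Creld2), chr14:118937827-118937845 (Dnajc3), chr13:12565682-12565700 (Ero1lb), chr10:75893242-75893260 (Derl3) and chr19:6046532-6046550 (Syvn1). In GENCODE M21, 10 of the 11 met no annotated exon. The Hspa5 element lay inside the first exon of Hspa5-201, a longer transcript that held 2.67% ± 0.742 of the gene's TPM.

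Hsp90b1, on the minus strand of chromosome 10, was the only member with 2 exact elements, shown here in the stretch chr10:86705510-86705694 upstream of the annotated gene, read 5′ to 3′ on the gene's strand.
Hsp90b1 upstream: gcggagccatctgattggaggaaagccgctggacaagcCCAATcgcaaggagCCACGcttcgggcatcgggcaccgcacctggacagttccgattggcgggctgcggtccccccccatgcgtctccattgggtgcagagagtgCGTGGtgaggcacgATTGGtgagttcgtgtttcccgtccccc
The first capitals are the element on the gene's strand, and the second set is the nearer one, which reads ATTGG and CGTGG here because it lies on the opposite strand. Canx, on the minus strand of chromosome 11, is shown in the same way over chr11:50325674-50325923, with its single element on the gene's strand.
Canx upstream: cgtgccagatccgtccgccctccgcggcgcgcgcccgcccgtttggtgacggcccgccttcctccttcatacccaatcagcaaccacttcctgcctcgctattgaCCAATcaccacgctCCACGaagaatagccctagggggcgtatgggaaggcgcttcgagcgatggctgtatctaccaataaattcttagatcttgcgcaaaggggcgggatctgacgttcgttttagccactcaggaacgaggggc

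By role, an exact ERSE was found for both lectin chaperones, for 3 of 6 Hsp70 and Hsp90 genes with a window, for 3 of 9 isomerases and oxidases and for 2 of 8 degradation factors. It was found for 0 of 4 translocon, 0 of 3 TRAP, 0 of 2 signal peptidase, 0 of 3 signal recognition particle and 0 of 6 oligosaccharyltransferase genes, and for 0 of 1 sensor. Members with an exact ERSE had a median level of 188 TPM and spanned 11.4 to 953 TPM. Members with a window and no exact ERSE had a median of 117 TPM and spanned 2.315 to 413 TPM, so the ranges overlapped between 11.4 and 413 TPM. With 1 mismatch allowed, a setting added after the data were seen, 18 of 44 members (40.9%) matched, against 1.72% of all genes with a window. The 8 further members were Rpn2, Herpud1, Pdia4, Pdia3, Sec61g, Derl2, Sel1l and Fkbp2.

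ERSE-II was found in 2 members against 0.0444% of all genes with a window, upstream of Herpud1 at chr8:94386377-94386387 and just downstream of the start of Dnajb11. The Herpud1 element lay in no annotated exon but within the span of Gm15890.
Herpud1, ERSE-II: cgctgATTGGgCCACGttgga
UPRE was found in 0 of 44 members and in 0.714% of all genes with a window. No exact match of one motif overlapped a match of another. These matches describe letters in a window and not bound sites.

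**Figure D2:**
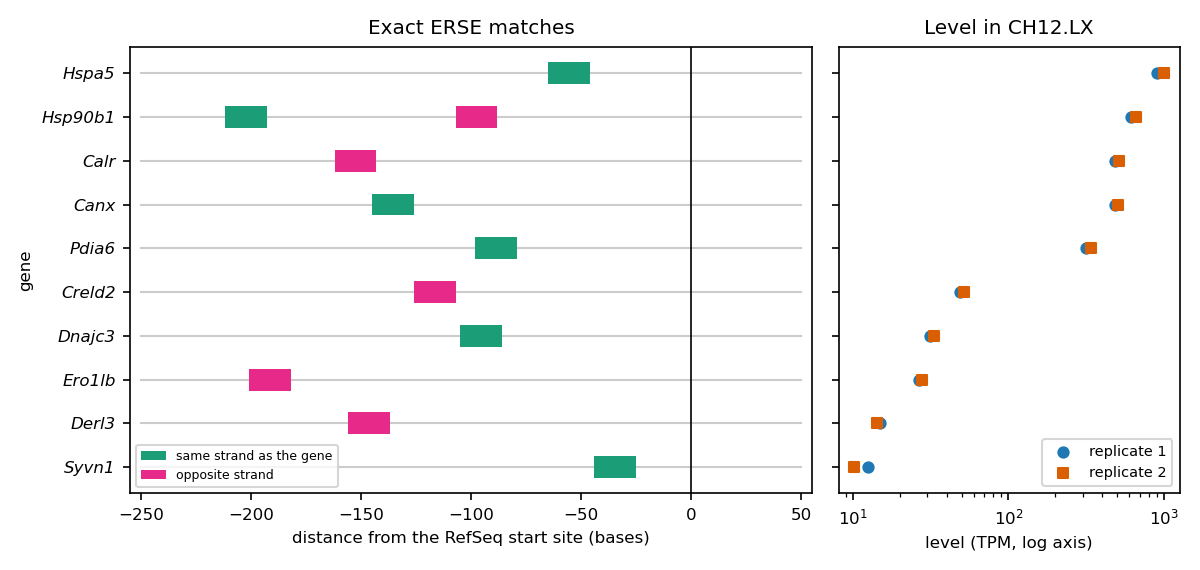
Left, position of each exact ERSE in bases from the RefSeq start site, from 250 upstream to 50 downstream, coloured by strand relative to the gene. Right, level of the same gene in TPM (log axis) in replicates 1 (circles) and 2 (squares), with the 10 genes spanning 11.4 to 953 TPM.

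The chaperones of the Hsp70 and Hsp90 families and their cofactors formed the most abundant role group, with a summed level of 2127 ± 130 TPM over 8 genes. Hspa5, which encodes BiP, the ER Hsp70 that binds unfolded chains and holds the stress sensors inactive, was at 899.7 TPM in replicate 1 and 1005 TPM in replicate 2. Hsp90b1 encodes GRP94, the ER Hsp90, which folds integrins and Toll-like receptors, and was at 614 and 659 TPM. In each library Hspa5 was above Hsp90b1, by 1.496 ± 0.0428 fold. Hspa5 alone held 10.9% ± 0.882 of the summed TPM of the 53 genes, and the 5 highest members held 34.1% ± 1.17.

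The cofactors of BiP were far below it. Hyou1, a large Hsp70 relative that exchanges nucleotide on BiP, was at 24.55 and 23.5 TPM, so that Hspa5 exceeded it 39.7 ± 4.31 fold. By expected counts per annotated exon length this ratio was 29.4, and with coding transcripts only it was 29.5 ± 3.73. Among the J-domain partners, Dnajb11 was at 98.8 and 114 TPM, Dnajc3 at 31.5 and 33.1 TPM and Dnajb9 at 13.2 and 14.15 TPM, and none of these 3 ranges overlapped. Sdf2l1, a partner of Dnajb11, was at 129 and 121.5 TPM, above Dnajb11 in both libraries. Manf, a small secreted protein that binds BiP, was at 224 and 248 TPM. Replicate 2 was above replicate 1 for 6 of these 8 genes, with Sdf2l1 and Hyou1 the exceptions, and 0 of the 8 passed 1.2-fold either way.

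The lectin chaperones calreticulin and calnexin retain glycoproteins that carry a glucose tag, the first in the lumen and the second in the membrane. Calr was at 483 and 511 TPM and Canx at 482 and 506 TPM, and the ratio Canx to Calr was 0.994 ± 0.00616. Their ranges overlapped, so the small difference did not exceed the spread between replicates.

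Disulfide isomerases and oxidases, with 2 prolyl isomerases, summed to 1302 ± 27.1 TPM over 9 genes, 5 of them past 100 TPM. P4hb, the classical protein disulfide isomerase, was at 374 and 345 TPM, and Pdia6 was at 313 and 338 TPM. Pdia4 was at 177 and 174 TPM, below Pdia6 in both libraries, and Pdia3, which works with the lectin chaperones, at 129.5 and 140.3 TPM. The oxidases that recharge these enzymes differed more: Ero1l was at 222 and 171 TPM, and Ero1lb at 26.5 and 27.7 TPM. Ero1l therefore exceeded its paralog 7.28 ± 1.58 fold, with no overlap. Creld2, a stress-induced disulfide isomerase, was at 48.8 and 51.5 TPM. The prolyl isomerases were low, Fkbp11 at 15.5 and 17.45 TPM and Fkbp2 at 13.8 and 16.3 TPM, with overlapping ranges and 118 to 178 expected counts per library.

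ER-associated degradation, the route by which misfolded chains leave the ER, spanned a wide range over its 9 genes, with a median of 39.0 TPM. The derlins, membrane proteins of the exit channel, were ordered Derl1 over Derl2 over Derl3 in both libraries. Derl1 was at 291 and 264 TPM, Derl2 at 101 TPM in both and Derl3 at 14.8 and 14.4 TPM, which gave ratios of 2.74 ± 0.173 for Derl1 to Derl2 and 0.144 ± 0.00271 for Derl3 to Derl2. By expected counts per annotated exon length these ratios were 1.72 and 0.0813, and the order held. The mannose-trimming EDEM genes were ordered Edem1, Edem2, Edem3. Edem1 was at 78.7 and 78.15 TPM, Edem2 at 37.4 and 40.5 TPM and Edem3 at 12.1 and 13.5 TPM, with no overlap. Herpud1, a scaffold of the degradation complex, was at 198 and 186 TPM. Syvn1, the ubiquitin ligase HRD1 at the centre of that complex, was among the lowest members at 12.5 and 10.2 TPM. Its partner Sel1l was at 35.8 and 37.4 TPM, and the ratio Syvn1 to Sel1l was 0.311 ± 0.0547.

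Within the protein complexes the highest of the listed subunits was set against the lowest in each library. The list does not hold every subunit of a complex. For the oligosaccharyltransferase, which attaches N-glycans, the ratio was 1.92 ± 0.0602 fold over 6 genes, and all 6 exceeded 100 TPM in both libraries. For signal peptidase it was 2.47 ± 0.0317 fold over 3 genes. The signal recognition particle spanned 4.47 ± 0.444 fold over 5 genes, the TRAP complex 5.41 ± 0.558 fold over 4, and the translocon 24.9 ± 5.13 fold over 5. That last value sets Sec61b, a subunit of the channel, against Sec63, which serves the channel. These 3 complexes passed 3-fold in both libraries. With further subunits from the pathway lists, an alternative added after the data were seen, all 5 passed it: the oligosaccharyltransferase spanned 10.5 ± 0.0486 fold over 12 genes, from Tusc3 to Ostc, and signal peptidase 3.91 ± 0.00542 fold over 5, with Sec11c the highest. The order of the listed subunits was the same in both libraries for every complex except the oligosaccharyltransferase.

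Within the translocon, Sec61b, the small beta subunit of the channel, was at 448 and 378 TPM. The pore subunit Sec61a1 was at 175 and 173 TPM and the gamma subunit Sec61g at 107 and 101 TPM. The ranges of the 3 subunits were separate, with ratios to Sec61a1 of 2.37 ± 0.262 for Sec61b and 0.597 ± 0.0156 for Sec61g. Sec62 and Sec63, which serve the channel for chains that enter after synthesis, were at 43.5 and 49.6 TPM and at 15.7 and 17.8 TPM. The paralog Sec61a2 was at 34.2 and 41.0 TPM, so that Sec61a1 exceeded it 4.67 ± 0.642 fold.

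The TRAP complex sits beside the channel and helps chains to enter. Its subunit genes ran from Ssr4 at 331 and 298 TPM through Ssr2 at 289.7 and 248 TPM and Ssr3 at 171 and 173 TPM to Ssr1 at 57.0 and 59.3 TPM. Of signal peptidase, which removes the signal peptide, Spcs1 was at 264 and 268 TPM, Spcs3 at 169 and 184 TPM and Spcs2 at 108 TPM in both. Its catalytic subunits are encoded by the paralogs Sec11a and Sec11c, and Sec11c, at 422 and 421 TPM, exceeded Sec11a, at 109 TPM in both, by 3.87 ± 0.0164 fold.

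The signal recognition particle, the ribonucleoprotein that pauses translation and docks the ribosome at the ER, had its Alu-domain pair Srp9 and Srp14 at like levels. Srp9 was at 169.8 and 179.8 TPM and Srp14 at 165 and 171 TPM, with overlapping ranges and a ratio of 1.04 ± 0.0169. Srp19 was at 91.2 and 108 TPM. Srp72 and Srp68, which form a heterodimer, were at 65.4 and 67.7 TPM and at 40.9 and 37.6 TPM.

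Of the oligosaccharyltransferase genes, Stt3a and Stt3b encode alternative catalytic subunits, the first acting beside the channel during translation and the second mostly afterwards. Stt3a was at 118 and 113 TPM and Stt3b at 119 and 116 TPM, with overlapping ranges and a ratio of 0.983 ± 0.0155. Rpn2, at 232 and 212 TPM, exceeded Rpn1, at 142 and 138 TPM, with a ratio Rpn1 to Rpn2 of 0.631 ± 0.0259. Both ratios moved once transcripts not annotated as protein-coding were left out, as given with the transcripts. Ddost was at 126 and 116 TPM. Dad1, a small subunit whose loss is known to trigger cell death, was at 214 and 146 TPM. Magt1 and Tusc3, alternative oxidoreductase subunits that join Stt3b, were at 64.6 ± 6.12 and 40.6 ± 1.28 TPM.

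The 2 sensors in the set were the lowest role group, with no gene past 100 TPM. Atf6, a membrane-held transcription factor that is cut free under stress, was at 25.97 and 27.4 TPM, above its paralog Atf6b at 14.5 and 15.4 TPM by 1.78 ± 0.0123 fold. Ern1, which encodes the kinase and RNase IRE1, was at 2.31 and 2.32 TPM from 294 and 260 expected counts, above 57.5% of protein-coding genes. Its gut paralog Ern2 had 0 counts in replicate 1 and 1 in replicate 2. Against the limit of 3 counts that a count of 0 allows in replicate 1, Ern1 was at least 44.3-fold higher there.

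**Figure D3:**
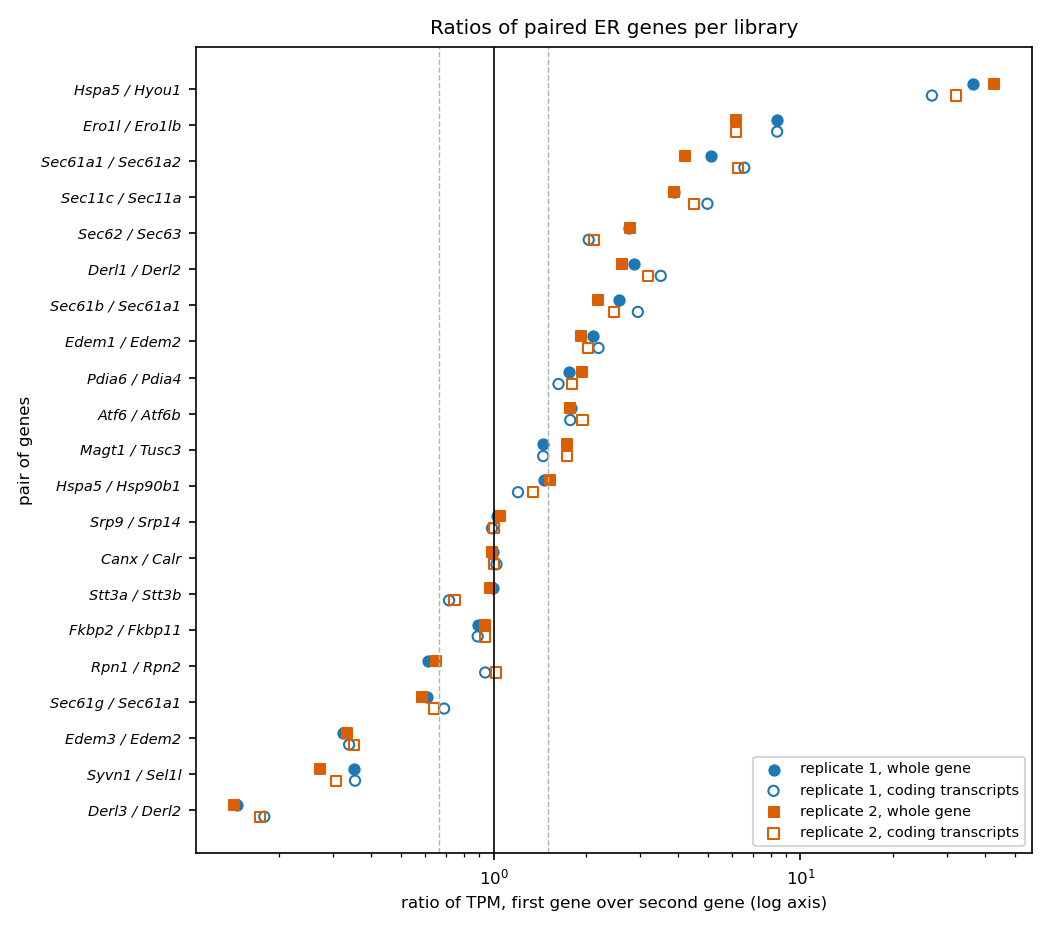
Ratio of TPM (log axis) of 21 gene pairs in replicate 1 (circles) and replicate 2 (squares), for the whole gene (filled) and for its protein-coding transcripts only (open). The solid line marks 1 and the dashed lines 1.5-fold either way. For Rpn1 to Rpn2 the filled symbols lie past the lower dashed line and the open ones near 1. For Stt3a to Stt3b the filled symbols lie near 1 and the open ones below it.

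Of the 21 pairs that could be set side by side, 15 differed by more than 1.5-fold in the same direction in both libraries. Ranges overlapped for 4 pairs: Stt3a and Stt3b, Canx and Calr, Fkbp2 and Fkbp11, and Srp9 and Srp14. Their ratios within replicates 1 and 2 were, in that order, 0.994 and 0.972, 0.999 and 0.990, 0.888 and 0.936, and 1.03 and 1.05. Each thus stayed on the same side of 1 in these 2 libraries, although the ranges overlapped. When replicate 2 was taken alone, Hspa5 to Hsp90b1 and Magt1 to Tusc3 also passed 1.5-fold, which gave 17.

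Other genes of the pathway were read from lists of 98 genes, of which 83 were at 1 TPM or more in both libraries, with a median of 30.6 TPM against 118 TPM for the 53. Of 15 further sensors and transcription factors of the response 10 passed 1 TPM. Atf4, the factor translated when PERK is active, was the highest at 620 and 543 TPM. Xbp1, the substrate of IRE1, was at 103 and 98.1 TPM, PERK itself (Eif2ak3) at 17.6 and 18.8 TPM and Ddit3, which encodes the death-linked factor CHOP, at 23.6 and 26.7 TPM. Of 10 targets of the PERK branch 8 passed, with a median of 22.8 TPM. Chac1, a glutathione-degrading enzyme, was the highest at 37.8 and 35.99 TPM, and Vldlr the lowest, with 0 and 1 count. Asns, asparagine synthetase, had 1 count in each library.

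Among targeting and translocation partners 12 of 13 passed, from Wfs1 at 0.390 ± 0.0849 TPM to Sec11c. Glycosylation partners passed in 18 of 19, from Uggt2 at 0.865 ± 0.1202 TPM to Ostc, an oligosaccharyltransferase subunit, at 425 ± 11.4 TPM. Of 22 folding partners 16 passed, and Mzb1, a B-cell chaperone cofactor for immunoglobulin, led all of these lists at 1441 and 1210 TPM, above Hspa5 in both libraries. Pdia2, Pdia5 and Pdilt had 0 counts in both, which allows up to 0.162, 0.0943 and 0.0781 TPM in replicate 2 from counting error alone. Degradation partners passed in 19 of 19, from Rnf5 at 5.70 ± 1.02 TPM to Vcp, the ATPase that pulls chains out of the membrane, at 154 ± 0.757 TPM.

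The machinery was also set against 5 genes of antibody, one of its loads in B cells, with other cargo not counted. The 53 genes held 0.878% ± 0.00240 of all TPM, and the antibody genes held 1.11% ± 0.101. These were Igkc at 5042 ± 554 TPM, Igha at 2664 ± 203 TPM, Ighm at 1512 ± 127 TPM, Jchain at 975 ± 49.3 TPM and Iglc2 at 904 ± 77.5 TPM. The ratio of summed TPM, machinery to antibody, was 0.744 in replicate 1 and 0.844 in replicate 2. Counted by reads, the order turned: the machinery took 1.56% ± 0.00236 of expected counts and the antibody genes 0.622% ± 0.0470. TPM divides by an effective length, below the annotated one, and the Igkc feature is only 323 nt long. Igkc reached 5433 and 4650 TPM from 11399 and 9409 expected counts, while Igha reached 2808 and 2521 TPM from 71636 and 62597. The TPM ratios of machinery to antibody thus lean on this short Igkc feature. Sums of counts per annotated length were not compared. Cytosolic and mitochondrial chaperones, 36 genes, held more than the ER set in both units, 1.71% ± 0.0492 of TPM and 2.45% ± 0.159 of counts. All 36 passed 1 TPM, 25 passed 100 TPM, and their median was 194 TPM. The highest was Hspa8, the cytosolic counterpart of Hspa5, at 5718 ± 353 TPM, and the lowest Hspa4l at 1.455 ± 0.191 TPM. For Hspa8 the units moved apart between replicates 1 and 2: TPM fell from 5968 to 5469 while expected counts rose from 162556 to 178113.

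The tables split the 53 genes over 215 annotated transcripts. For 32 genes, 17 of them with a single transcript, 1 transcript held 90% or more of TPM in both libraries. The highest transcript was protein-coding for 52 genes, and that of Spcs1 was not in GENCODE M21. In 6 genes more than 20% of TPM lay on transcripts of a type other than protein-coding, decay forms included: Hspa5, Manf, Rpn2, Sec62, Srp72 and Stt3a. In Hspa5 the coding transcript Hspa5-202 held 67.5% ± 2.08, and Hspa5-204, a 477-nt form annotated for nonsense-mediated decay, held 25.7% ± 1.202 of TPM but 3.67% ± 0.209 of the gene's counts. Stt3a-202, a decay form of 602 nt, held 23.6% ± 3.11 of TPM and 2.11% ± 0.373 of counts. Sec62-203, a processed transcript of 558 nt, held 27.7% ± 2.07 of TPM and 3.43% ± 0.293 of counts.

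In other genes the forms not annotated as protein-coding took more of the reads. Manf-205, a retained-intron form of 502 nt, held 36.4% ± 2.998 of TPM and 14.7% ± 1.08 of counts. In Rpn2 the processed transcripts Rpn2-205 and Rpn2-206 traded places between libraries, at 23.3% and 5.79% of TPM for the first and 8.57% and 28.3% for the second, while the coding form Rpn2-202 stayed at 65.2% and 63.8%. Srp68 showed a like exchange between coding forms, with Srp68-201 at 60.9% and 85.9% of TPM. Shares of forms that share most exons are estimates, and for Rpn2 and Srp68 they were not stable between replicates. Sel1l shifted too: Sel1l-202, a processed transcript of 509 nt, held 8.41% and 16.1% of TPM in replicates 1 and 2. Coding TPM of Sel1l fell from 31.5 to 28.9 while its whole-gene TPM rose from 35.8 to 37.4.

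**Figure D4:**
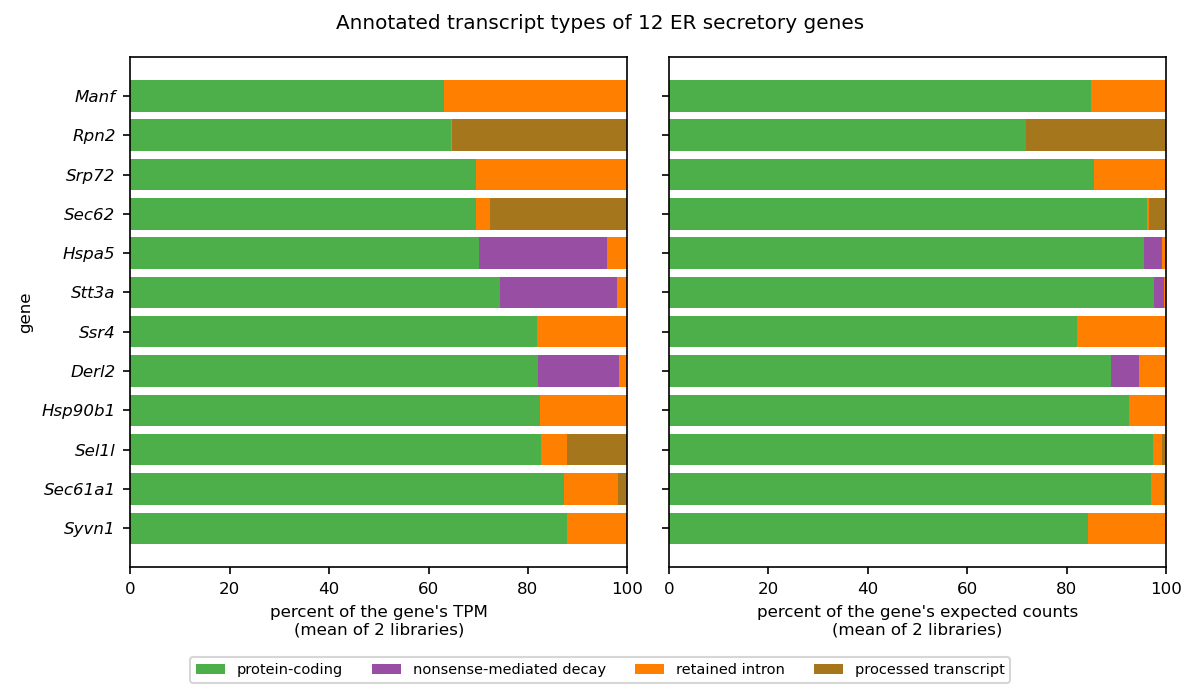
Share of each annotated transcript type in the 12 genes with the smallest coding share of TPM, Spcs1 left out, as mean percent of the gene's TPM (left) and of its expected counts (right). Decay forms of Hspa5 and Stt3a are wide bars by TPM and narrow bars by counts, while the processed forms of Rpn2 are wide in both.

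With coding transcripts only (forms of Spcs1 that are not in GENCODE M21 kept), a setting added after the data were seen, Hspa5 was at 669 ± 65.2 TPM and stayed above Hsp90b1, at 524 ± 8.38 TPM, by 1.28 ± 0.104 fold. Stt3a fell below Stt3b in both libraries, with a ratio of 0.716 and 0.746. Rpn1 and Rpn2, which differed at the whole-gene level, stood at a ratio of 0.939 and 1.02, a shift of the mean from 0.631 to 0.978. The mean ratio of Sec62 to Sec63 went from 2.78 to 2.08. The number of pairs past 1.5-fold went from 15 to 13, with Rpn1 to Rpn2 and Sec61g to Sec61a1 lost. All 53 genes still passed 1 TPM.

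Xbp1 is the gene whose RNA is cut by IRE1, which removes a short intron and so changes the reading frame. Its transcript Xbp1-201 held 90.6% ± 2.60 of TPM. The shortest intron in any of its 4 annotated transcripts was 300 nt, so the cut and uncut forms are not separate entries of these tables, and their ratio was not analysed here.

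Between the replicates, differences are given as replicate 2 minus replicate 1 of log2(TPM + 0.5), over the 11661 genes with a mean of 20 or more expected counts, with 1 library on each side and so no test. Past 1.2-fold, 0 of the 53 genes were higher in replicate 2, against 8.10% of all these genes, and 3 were lower, against 12.3%. Scaled to the ERCC spike-ins instead, 36 were higher and 0 lower, against 58.1% of all genes higher and 2.53% lower, and the median of all genes itself moved to 0.30. Dad1 differed by -0.55, Ero1l by -0.38 and Syvn1 by -0.29. The median absolute difference was 0.089 over the 53 genes and 0.14 over all genes, and the median difference was 0.020 and -0.0022. The 11661 genes were not matched to the more abundant 53 for level, and genes of few counts differ more by counting error. The part of level in these contrasts was not tested. Replicate 2 was above for 29 of the 53 and below for 24, and only Dad1, Ero1l and Syvn1 passed 1.2-fold.

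GC content moved with this difference. Over the 52 genes with a value, Spearman's rho between the GC percent of the highest transcript and the difference was -0.42, and over 11562 genes it was -0.34. This is a correlation across genes of the same libraries, which are not independent replicates. The highest transcripts of Dad1, Ero1l and Syvn1 had 55.6%, 41.6% and 57.4% GC. The part of GC content in the 3 differences was not tested. Length moved with level: rho was -0.29 over the 53 genes and -0.31 over all 11661. The 11 genes under 1 kb had a median of 168 TPM, the 21 genes from 1 to 3 kb had 172 TPM, and the 21 genes of 3 kb or more had 58.2 TPM, so the fall was not steady.

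**Figure D5:**
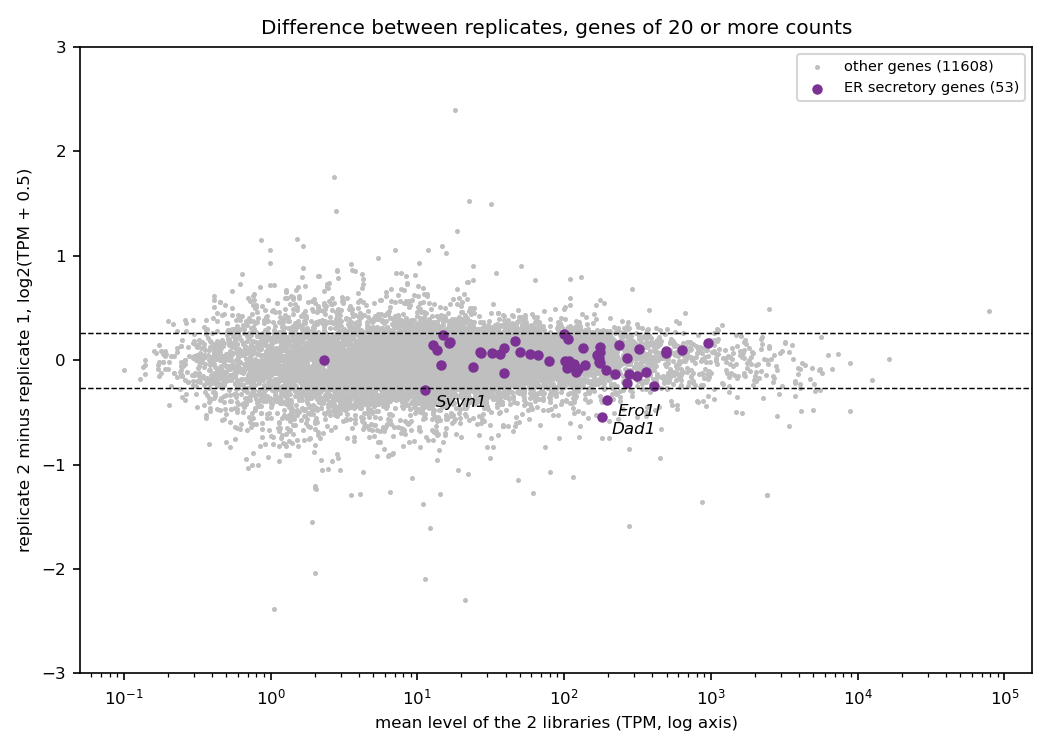
Difference between replicates in log2(TPM + 0.5) against mean level in TPM (log axis) for the 53 ER genes (purple) and all other genes of 20 or more counts (grey), with dashed lines at 1.2-fold either way and 4 genes outside the axis. The 53 genes lie within the lines except Dad1, Ero1l and Syvn1, which lie below.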

How the data were processed

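RNA of CH12.LX was measured in 2 libraries, the biological replicates 1 and 2 of the labels, which form 1 group; with 1 group no test between conditions was made and no p-value computed. The accompanying text files name build mm10 (GRCm38) and GENCODE annotation M4 and list signal tracks for each strand. The tools for alignment and quantification were not given in the sources used here. The authors deposited, for genes and for transcripts, expected counts (estimated reads per feature, not normalized), TPM and FPKM (both scaled by length and library total), the isoform percent of each transcript, and posterior mean values. Deposited TPM, scaled over all features with spike-ins included, gave every level, so a change in one abundant RNA shifts all other values. Posterior mean TPM and FPKM served as alternatives.

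Members and lists were matched by GENCODE M21 symbols to gene identifiers without version; 2 symbols of the pathway lists had no feature. Members, lists and pairs were chosen with earlier results of these data known. Named were all 53 members, the highest and lowest gene of each list, the genes of the pairs and a set of response and antibody genes. Markers, Asns and the genes under other observations were named after their values were seen. A gene counted as expressed at 1 TPM in both libraries. Ratios were formed within each library. The pseudocount of 0.5 understates differences of low genes. Limits behind a count of 0 are 3 counts and cover counting error only. Promoters were searched for exact letters in RefSeq windows, with RefSeq names Ero1a and Ero1b matched through Entrez identifiers; protein sequences were not used here. Alternatives were other units, thresholds, pseudocounts, filters, coding transcripts, each replicate alone, and scaling by edgeR's TMM, median-of-ratios size factors (both on expected counts rounded to whole numbers) or ERCC spike-ins. Python 3.11.15, pandas 2.3.3, numpy 2.4.6, scipy 1.17.1, matplotlib 3.10.9 and edgeR 4.0.16 were used.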

Additional observations from a re-analysis of the deposited data

How the results depend on the processing

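All 53 genes stayed at 1 TPM or more with posterior mean TPM, FPKM, coding transcripts or either replicate alone, and 52 reached 10 TPM. The median level was 115 TPM with posterior means and 100.4 in FPKM, and 116 to 119 TPM with one replicate left out. The share of the library was 0.857% by posterior means, 1.56% by expected counts and 0.978% without mitochondrially encoded genes, and 0.876% to 0.879% with one replicate left out. Pairs past 1.5-fold numbered 15 to 17 with one replicate left out, complexes past 3-fold 3 in each case and genes carried by 1 transcript 32 in each case. Genes carried by 1 transcript numbered 31 by posterior means and 38 by expected counts, alternatives added after the data were seen. With further subunits, 5 complexes passed 3-fold. Over 21 ratios and the 3 alternatives that keep both replicates, 36 of 63 values moved by more than the replicate SD and 27 by less. Canx to Calr and Srp9 to Srp14, which are close to 1, crossed it in 4 of these values (Canx to Calr 1.05 by counts per exon length). Scaling to ERCC spike-ins moved the median of all 11661 genes by 0.30 (log2), called 58.1% of them higher, and put 36 of the 53 genes higher and 0 lower in replicate 2 with a median of 0.34. Relative to that shift, 1 was higher and Dad1, Ero1l and Syvn1 were lower. At 1.5-fold 0 were lower. The cause of the shift was not tested. With 1 mismatch allowed, 18 promoters held an ERSE. Protein ends, planned with the motifs, were not run. No paired analysis was possible because the libraries form 1 group. A difference between replicates has no value with one left out. Precision is limited by n = 2.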

Other observations

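An exact ERSE was also looked up in genes outside the set. Of the 37 genes with one, 29 matched a feature, 10 were among the 53, and 0 were among the other genes of the pathway, 77 of which had a promoter window. Of the remaining 19 genes 7 were at 1 TPM or more in both libraries. Hnrnpa3, an RNA-binding protein of the nucleus, was at 176 and 214 TPM, and Acacb, a mitochondrial acetyl-CoA carboxylase, at 10.3 and 10.7 TPM. Alg12, a mannosyltransferase that builds the N-glycan donor in the ER membrane and was in none of the lists, was at 6.19 and 5.76 TPM. Pan2, a deadenylase subunit, was at 7.5 and 6.2 TPM. The X-linked copies Xlr3a, Xlr3b and Xlr3c were at 14.4 ± 0.714, 2.31 ± 0.721 and 4.02 ± 0.834 TPM, values that are uncertain because near-identical copies share reads. The other 12 were not expressed. Calr4, a calreticulin relative, had 2 counts and 0 counts although its window held the same motif as Calr, and Esp15, Esp16, Esp18, Esp36, Olfr59, Acnat2 and Tdrd9 had 0 counts in both libraries.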
